A study of Mus musculus with 4 samples.

Results

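The spots described here are those with the strongest choroid plexus signal in Visium-FFPE coronal brain sections of wild-type C57BL/6J mice at postnatal day 21. In each of the 4 sections, spots with at least 500 unique molecular identifiers (UMIs) and 250 genes were kept, and each was scored by the mean of ln(1 + UMIs per 10000) over Folr1, Kcnj13, Clic6, Kl, Otx2 and Calml4. The members were chosen by this score alone, as the 18 highest spots of each section, 72 of 13452 kept spots in all. The mothers received 2 mg/kg folic acid (FA; the MF group, labelled median folate and used as the control) or 20 mg/kg FA (the HF group, high folate) from 2 weeks before mating through pregnancy and lactation. The pups were male according to the methods of the study, and each diet is represented by 2 sections from separate tissue blocks. A section is the replicate throughout. The p-values rest on these few sections and on variances that the test shares among genes. They do not measure the spread of a single gene alone. A spot is an area of tissue that can hold several cells of different types.

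The choroid plexus is a folded sheet of epithelium on a core of leaky capillaries and stroma that hangs into the brain ventricles and secretes cerebrospinal fluid. Its epithelium pumps sodium, chloride, bicarbonate and water, secretes carrier proteins such as transthyretin, and takes folate from the blood into the cerebrospinal fluid through folate receptor alpha, the product of Folr1. The ventricle wall beside it is lined by ciliated ependymal cells. The plexus of the lateral ventricle lies beside the fimbria, a myelinated tract, and that of the midline ventricle between the thalami lies beneath the medial habenula. Of the other score genes, Kcnj13 encodes an inwardly rectifying potassium channel of the epithelium, Clic6 a chloride channel protein, Kl the hormone co-receptor klotho, Calml4 a calmodulin-like protein and Otx2 a homeobox transcription factor required for the plexus to form.

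Promoter windows of the score genes, from 250 bases before to 50 bases after a transcript start, were read from RefSeq (GRCm38.p6). It gave 7 windows for 4 of the 6 genes (Kcnj13, Kl, Calml4 and 4 starts of Otx2). They were searched on both strands for TAATCC, the core motif of OTX-type homeobox proteins, and for GTTGCC, a core motif of the RFX factors of ciliated cells. TAATCC was present in 1 of the 7 windows and in 7.06% of 32851 windows of the same length, and GTTGCC in 2 of the 7, which overlap each other, and in 12.5% of all windows. The windows that carry a motif at separate starts, both of Otx2 on the minus strand, and that of Kcnj13, which carries none, are shown with motif letters in capitals (GGATTA is TAATCC read on the other strand).
Otx2, chr14:48665060-48665359: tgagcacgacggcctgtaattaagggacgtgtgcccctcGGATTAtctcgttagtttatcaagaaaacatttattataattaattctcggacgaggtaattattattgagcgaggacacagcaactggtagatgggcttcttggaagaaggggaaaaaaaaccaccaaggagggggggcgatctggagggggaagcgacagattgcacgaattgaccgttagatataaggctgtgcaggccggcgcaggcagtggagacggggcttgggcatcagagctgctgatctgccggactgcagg
Otx2, chr14:48667459-48667758: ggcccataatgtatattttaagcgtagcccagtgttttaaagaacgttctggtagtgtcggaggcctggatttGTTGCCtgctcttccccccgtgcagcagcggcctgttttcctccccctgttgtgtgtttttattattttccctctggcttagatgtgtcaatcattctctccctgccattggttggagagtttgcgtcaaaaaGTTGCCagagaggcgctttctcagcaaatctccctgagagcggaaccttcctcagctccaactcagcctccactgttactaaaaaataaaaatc
Kcnj13, chr1:87394680-87394979, minus strand: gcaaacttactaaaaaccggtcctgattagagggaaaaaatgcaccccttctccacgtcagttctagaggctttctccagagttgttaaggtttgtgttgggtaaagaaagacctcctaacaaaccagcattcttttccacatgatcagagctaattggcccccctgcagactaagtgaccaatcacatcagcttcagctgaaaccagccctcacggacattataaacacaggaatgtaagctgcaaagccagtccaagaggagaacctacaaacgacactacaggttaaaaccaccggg
A match of letters is a description only, and binding was not measured in these sections.

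The members were deep spots. Their median was 46612 and 20473 UMIs in MF replicates 1 and 2 and 22649 and 33120 UMIs in HF replicates 1 and 2, against 23482, 12057, 9252 and 11808 in the other spots. Summed over the 18 members, a section gave between 359000 and 858778 UMIs. MF replicate 1 was the deepest section, with 90098381 UMIs over all spots against 34983708 to 42507273 in the others. The sections shared 2472 spot barcodes, since Visium arrays carry the same barcodes.

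The limit of 18 spots fell within a falling series of scores rather than at a gap. The last member and the first spot left out had scores of 0.665 and 0.590 in the first MF section, 0.539 and 0.511 in the second, 0.823 and 0.801 in the first HF section and 0.620 and 0.613 in the second. The highest scores ran from 1.83 to 2.12, and between 55.8% and 76.8% of the other spots had no UMI of any score gene. The members of MF replicate 2 were the least certain: 5 of them rested on fewer than 10 score gene UMIs, against 1 in HF replicate 2 and 0 in the remaining sections. Of these, 1 member of MF replicate 2 held 2 score gene UMIs among 1869 UMIs.

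In every section the members fell into 2 main pieces, joined at 3 array steps or fewer, as the score map shows. The pieces held 11 and 7 spots in MF replicate 1 and 9 and 7 in MF replicate 2. They held 10 and 8 spots in HF replicate 1 and 10 and 7 in HF replicate 2. Of the 3 remaining spots, each of which lay alone, 2 were in MF replicate 2 and 1 in HF replicate 2. The lone spots of MF replicate 2 held Ttr at 0.107% and 0.163% of their UMIs, so they entered by the score with little of this other choroid plexus marker.

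**Figure D1:**
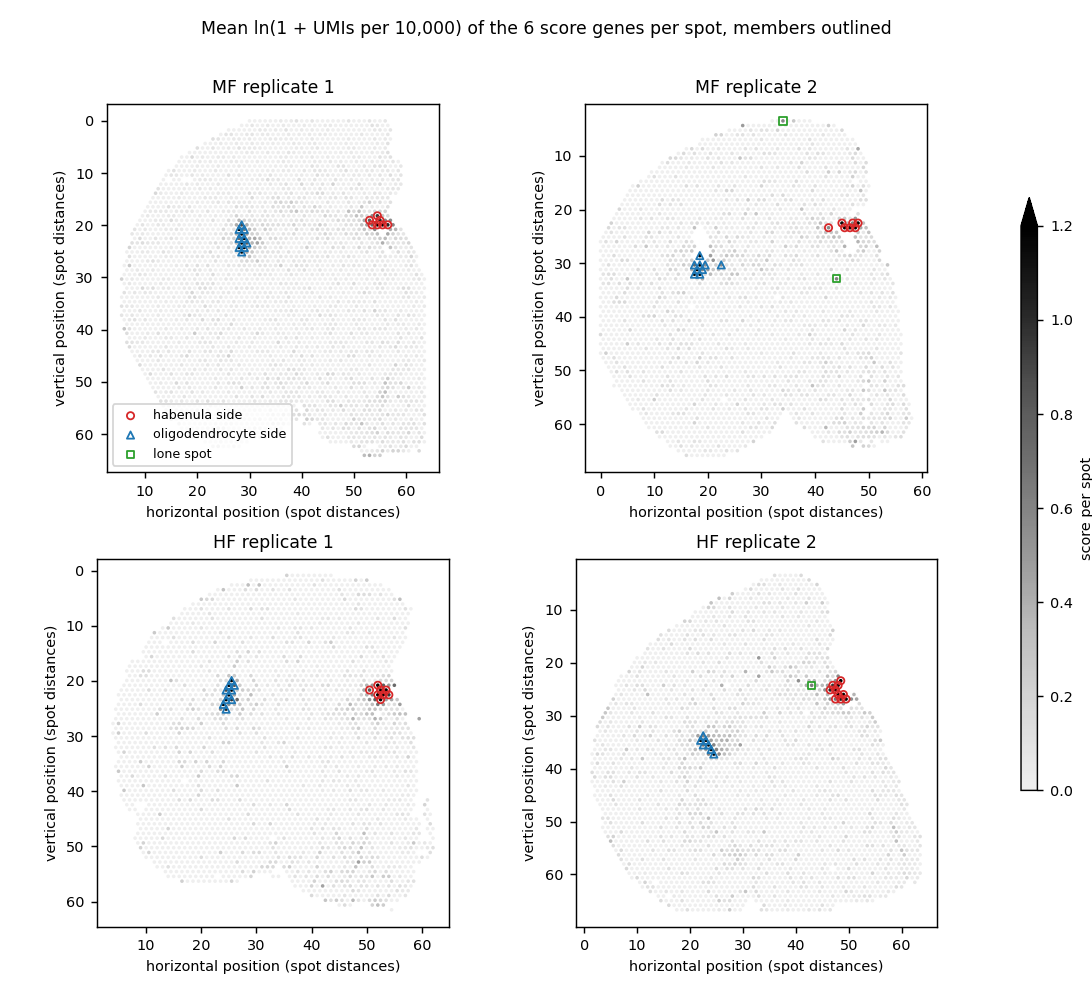
Position of every kept spot in the 4 sections, shaded by the score (mean of ln(1 + UMIs per 10000) over the 6 score genes), with axes in spot-to-spot distances. Circles outline members of the piece beside habenula markers, triangles those of the other main piece and squares the 3 lone spots; the 2 main pieces lie apart in each section.

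Ttr, which encodes transthyretin, the carrier of thyroid hormone and retinol-binding protein in cerebrospinal fluid, was no part of the score and marked the members most strongly. In the MF sections it took 12.6% (95% Wilson interval 12.5 to 12.6, counting error only) and 14.5% (14.4 to 14.7) of all member UMIs. In the HF sections it took 18.2% (18.1 to 18.3) and 18.5% (18.4 to 18.6). In the other spots its median share was between 0.0488% and 0.0730%. The members made up at most 0.563% of the kept spots of a section and held 50.2% to 65.5% of its Ttr UMIs. Among single members the share ran from 0.107% to 29.4%. It was 10% or more in 9 members of MF replicate 1, 8 of MF replicate 2, 11 of HF replicate 1 and 11 of HF replicate 2, and in 0 of the other spots, whose highest value was 5.26%. Across the 18 members of a section the Ttr share and the score had Pearson r of 0.957, 0.952, 0.961 and 0.974 in MF replicates 1 and 2 and HF replicates 1 and 2. These points share a library and the UMI total that both measures are divided by. With the summed CPM of the neuron markers in a spot, a share of the same total, the score had r between -0.876 and -0.654 in MF replicates 1 and 2 and HF replicate 1, and -0.901 in HF replicate 2.

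**Figure D2:**
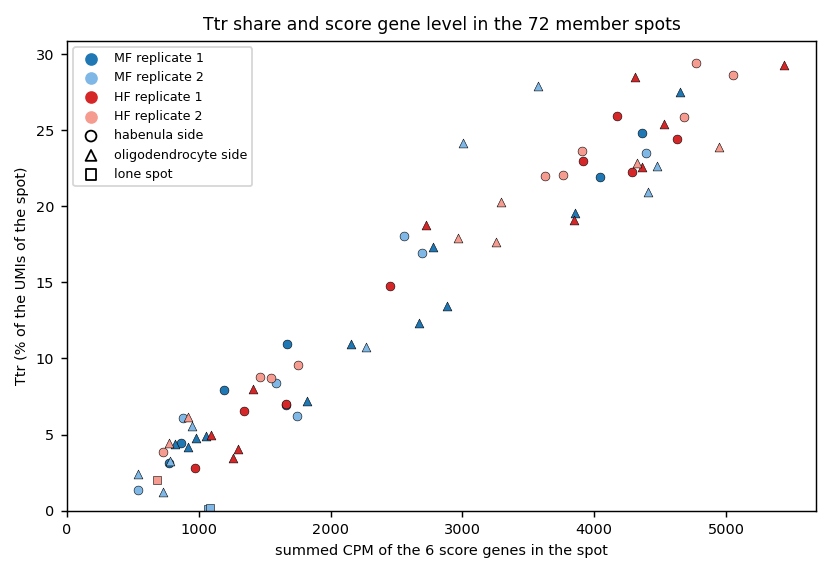
Ttr as a percentage of the UMIs of a spot (vertical axis) against the summed CPM of the 6 score genes (horizontal axis) for the 72 members, coloured by section and shaped by piece. The points form one rising series up to 29.4%, and the 2 lone spots of MF replicate 2 lie near 0% Ttr.

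Against the other spots, the members were led by genes of choroid plexus epithelium. This contrast chose the members and is given without a test, in UMIs of a gene per 1000000 UMIs of the summed spots (CPM) and as the mean of the per-section ratio on the log2(CPM + 1) scale. Of 3733 genes with at least 50 CPM in the members of every section, 199 were more than 4-fold and 80 more than 10-fold higher than in the other spots, while the median log2 ratio was -0.20. The 15 leading genes were Ttr, Ecrg4, Folr1, Tmem72, Mfrp, Aqp1, Clic6, Kcnj13, Kcne2, Slc4a5, Prr32, Cldn2, F5, Defb11 and Sostdc1. They hold a secreted peptide precursor (Ecrg4), a water channel (Aqp1), a potassium channel subunit (Kcne2), a sodium bicarbonate cotransporter (Slc4a5), a pore-forming tight junction claudin (Cldn2), a coagulation factor (F5) and a secreted BMP and WNT antagonist (Sostdc1). Ttr averaged 159497 ± 28746 CPM (SD, n = 4 sections) against 1205 CPM elsewhere, a log2 ratio of 7.04. Folr1 (chr7:101858331-101870788, minus strand, GRCm38) averaged 941 ± 156 CPM against 8.46. Aqp1 averaged 335 ± 64.0 CPM against 3.09.

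Transporter genes ranged from strongly enriched in the members to evenly spread. In the list of ion and water transport, 15 of 16 genes were higher in the members of all 4 sections. Aqp1, Kcne2 and Slc4a5 had log2 ratios of 6.36, 6.09 and 6.04, and the calcium channel gene Trpv4 had 4.73. The sodium pump subunit Atp1b1, which neurons express strongly, had -0.68. Of the folate and one-carbon list, which has 31 measured genes, 7 were higher and 4 lower in the members of all sections, with a median log2 ratio of 0.12. The reduced folate carrier Slc19a1 had 66.4 and 66.9 CPM in the MF sections and 78.2 and 107 CPM in the HF sections, against 31.8 CPM elsewhere. The proton-coupled folate transporter Slc46a1 stood at 16.3, 19.5, 30.3 and 17.9 CPM in the same order, against 6.28 CPM elsewhere. Ggh, which trims polyglutamate tails from folate, had a log2 ratio of 1.93, and Bhmt and Gnmt, enzymes of methionine metabolism, had 3.09 and 2.98 at 4.66 to 17.9 CPM. Probes differ in yield, so levels of different genes are not set against each other.

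Genes of the other parts of the plexus and of neighbouring tissue were present as well. All 12 ependymal genes were measured and 11 were higher in the members of every section, with a summed level of 1291 to 1903 CPM against 116 to 152 CPM elsewhere. Plvap, which marks the fenestrated capillaries of the plexus, had 66.4, 139, 126 and 147 CPM against a mean of 1.88 CPM elsewhere. The collagen genes Col1a1, Col1a2 and Col3a1 of the stroma had log2 ratios of 2.63, 2.75 and 2.13. Macrophage markers summed to 154 to 253 CPM, close to the 206 to 215 CPM elsewhere, and Lyve1 had 0 UMIs in the members of all sections. Neuron markers were lower in the members for 8 of 8 genes in every section (2126 to 3246 CPM against 6675 to 6896) but far from 0. Haemoglobin and other blood markers ranged widely, from 2219 to 6290 CPM, with MF replicate 2 at the top.

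Choroid plexus signal was far lower just outside the members. Ttr averaged 159497 CPM in the members, 16721 CPM 1 array step away, 7197 at 2 steps, 3942 at 3 steps and 698 at 7 steps or more. Choroid secreted proteins without Ttr were at 15976 CPM in the members, 2846 CPM at 1 step and 865 CPM at 7 steps or more. Ependymal markers were at 1535 CPM in the members, 554 at 1 step and 120 at 7 steps or more. Medial habenula markers were at 486 CPM in the members, 1253, 1362 and 1233 at 1, 2 and 3 steps and 123 at 7 steps or more. Oligodendrocyte markers averaged 18094 CPM in the members, 40059 at 1 step and 20218 at 7 steps or more. These rings pool both main pieces. Within 3 steps, the oligodendrocyte markers were at 63400 to 74957 CPM around 1 main piece of each section. Around the other they were at 14918 to 23668 CPM, against 19812 to 24690 CPM in all spots that were not members. Tissue richer in myelin genes than the section as a whole thus bordered only 1 of the main pieces.

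**Figure D3:**
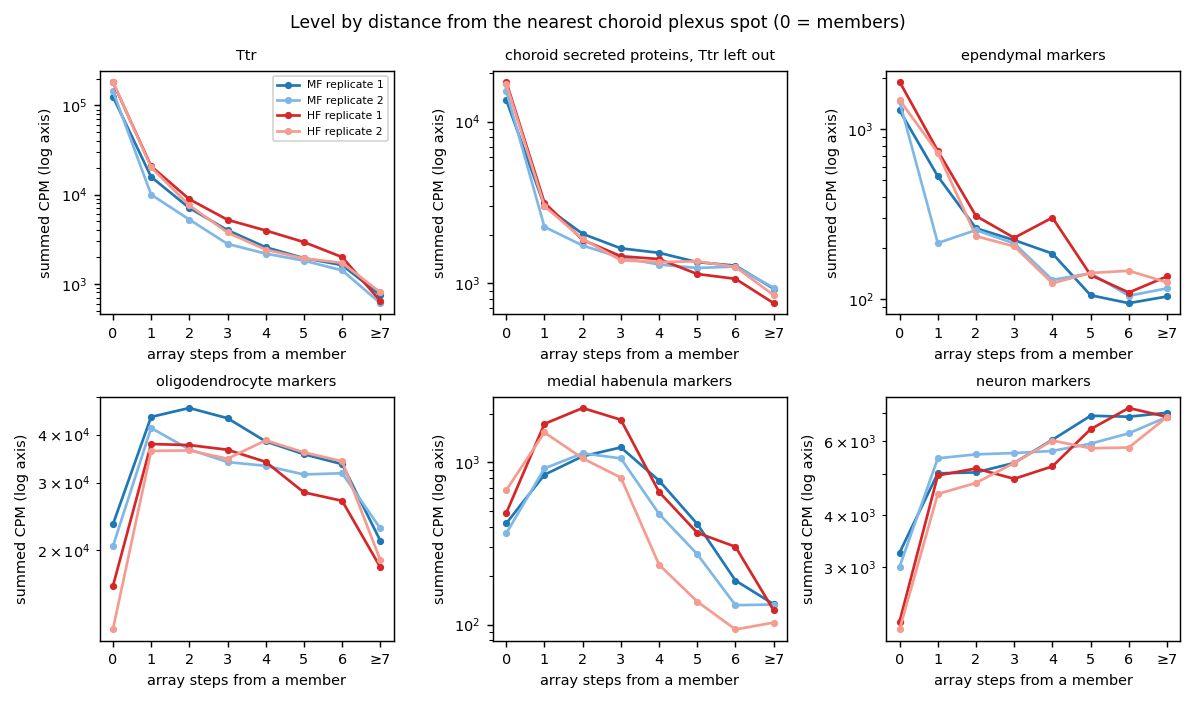
Summed CPM of Ttr and of 5 gene lists (log axis) against array steps from the nearest member (0 = members), with a line per section. Ttr falls from a mean of 159497 CPM to 698, while the means over sections of medial habenula and oligodendrocyte markers are highest at 1 to 3 steps (in HF replicate 2 the latter are highest at 4 steps).

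The main pieces of a section had different neighbours, and this gave a comparison within the choroid plexus. Around 1 piece of each section, within 3 steps, the medial habenula markers summed to 2243, 2597, 2816 and 2487 CPM in MF replicates 1 and 2 and HF replicates 1 and 2. Around the other piece they summed to 98.98, 94.6, 61.1 and 83.8 CPM, while oligodendrocyte markers there summed to 63400 to 74957 CPM against 14918 to 23668 CPM around the first. The pieces are called the habenula side (32 spots) and the oligodendrocyte side (37 spots), and the ventricles were not named, because histology was not used. The comparison was added after the pieces had been seen. Counts were summed per piece, and the sums were fitted with edgeR (quasi-likelihood) with the section as a block. Calls required 1.2-fold or more and an adjusted p, by Benjamini and Hochberg, below 0.05. The SE and p-values come from this fit and lean on variances shared among genes. Very small p-values therefore do not measure the spread of a single gene over the sections. The score genes and the habenula markers, which chose the spots and named the sides, were left without a test.

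Between the sides, 559 of 4929 genes were called (11.3%), 250 higher (5.07%) and 309 lower (6.27%) on the habenula side. Leaving out MF replicate 1 brought the number to 332. Where counts were scaled to library size alone, 55.7% of the calls were higher on the habenula side, against 44.7% here. A gene could pass the filter on low counts through only the side where it was higher. Such genes were not set apart, so these counts are a description. Markers of the bordering tissues differed strongly. The 6 oligodendrocyte markers, which named the other side, are among these calls but are described without a test. All were lower on the habenula side, with a median log2 difference of -1.74. Calb2, which encodes the calcium-binding protein calretinin, stood at 380 to 545 CPM on the habenula side and 11.8 to 34.3 CPM on the other. The part of these neighbours in the other differences was not tested.

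Of the 5 lists of choroid epithelium genes (secreted proteins, ion and water transport, nutrient and drug transport, receptors, junctions and keratins), 51 of 64 genes could be tested, and 6 were called higher and 9 lower on the habenula side, with a median of -0.06. Ttr was at 127451, 133860, 166112 and 193584 CPM on the habenula side of MF replicates 1 and 2 and HF replicates 1 and 2, and at 124588, 162701, 199191 and 180041 CPM on the oligodendrocyte side. It was not called (log2 difference -0.15 ± 0.13 SE, adjusted p = 0.588 in edgeR) and was higher on the habenula side in 2 sections. The log2 difference of Folr1, described without a test, was 0.03.

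Secreted proteins moved in both directions. Enpp2 encodes autotaxin, the enzyme that makes lysophosphatidic acid. It had 10050, 10733, 11561 and 12580 CPM on the habenula side against 7107, 8425, 9966 and 8297 CPM on the other (log2 difference 0.37 ± 0.10, adjusted p = 0.00405 in edgeR), higher in 4 of 4 sections. Igfbp2, which binds insulin-like growth factors, had 1302, 1678, 1973 and 1840 CPM against 1905, 2552, 2774 and 2303 CPM and was lower on the habenula side in 4 of 4 sections (-0.54 ± 0.10, adjusted p = 7.65e-07 in edgeR). Igf2 itself, a growth factor, was also lower (-0.32, adjusted p = 0.0464 in edgeR), a call that none of the 7 alternative settings kept. Trf, the iron carrier transferrin, was lower by more (-1.38), and it is also an oligodendrocyte gene.

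Transport genes differed too. Fxyd1, a regulator of the sodium pump, had 536, 527, 707 and 777 CPM on the habenula side against 660, 916, 1104 and 1166 CPM (log2 difference -0.60 ± 0.10, adjusted p = 1.77e-07 in edgeR). Slc29a4, a plasma membrane monoamine transporter gene, had 202, 185, 255 and 158 CPM against 310, 319, 461 and 294 CPM (-0.82 ± 0.14, adjusted p = 1.97e-07 in edgeR). Slc2a12, a glucose transporter gene, was lower by 0.60 (adjusted p = 0.00217 in edgeR). These 3 genes were lower on the habenula side in every section and under all 7 alternative settings. Slc4a10, a sodium-dependent bicarbonate transporter, was higher (0.41 ± 0.12, adjusted p = 0.00776 in edgeR) in 3 of 4 sections. Neurons also express Slc4a10 and the pump subunit Atp1b1, which was higher by 0.55. The serotonin receptor gene Htr2c was higher by 0.39 (adjusted p = 0.0145 in edgeR) in 3 of 4 sections. It was at 520 against 565 CPM in HF replicate 1, the reverse order, and its call was kept under 4 of 7 alternative settings.

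Markers of stroma, blood and ependyma also differed between the sides. Of 7 stroma and meninges genes tested, 6 were called higher on the habenula side and Cldn11, a claudin of both arachnoid and oligodendrocytes, was called lower, with a median of 1.56. Ptgds, prostaglandin D synthase, had 1067, 1059, 751 and 990 CPM against 221, 307, 581 and 225 CPM (log2 difference 1.60 ± 0.11, adjusted p = 2.14e-42 in edgeR). Its difference was much smaller in HF replicate 1 (751 against 581 CPM) than in the other sections, a spread that the SE does not show. The collagen-binding proteoglycan gene Lum differed by 2.66. The adult beta-globin gene Hbb-bs had 2696, 7671, 4632 and 2400 CPM on the habenula side against 569, 969, 690 and 407 CPM (2.58 ± 0.11, adjusted p = 1.03e-123 in edgeR), and the other 2 blood genes tested were called in the same direction. Plvap was higher by 0.89 (adjusted p = 0.000405 in edgeR) in 3 of 4 sections. The transcription factor gene Zic1, which is expressed in dorsal midline and meningeal tissue, had 398, 293, 353 and 453 CPM against 78.5, 76.8, 98.5 and 118 CPM (2.03 ± 0.16, adjusted p = 8.59e-34 in edgeR). Ependymal genes were lower on the habenula side for 10 of 11 genes, 7 of them called, with a median of -0.62. Foxj1, the master regulator of motile cilia, was lower by 0.76 (adjusted p = 0.00630 in edgeR). MF replicate 2 went the other way for Ccdc153, with 228 CPM on the habenula side against 130 CPM.

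**Figure D4:**
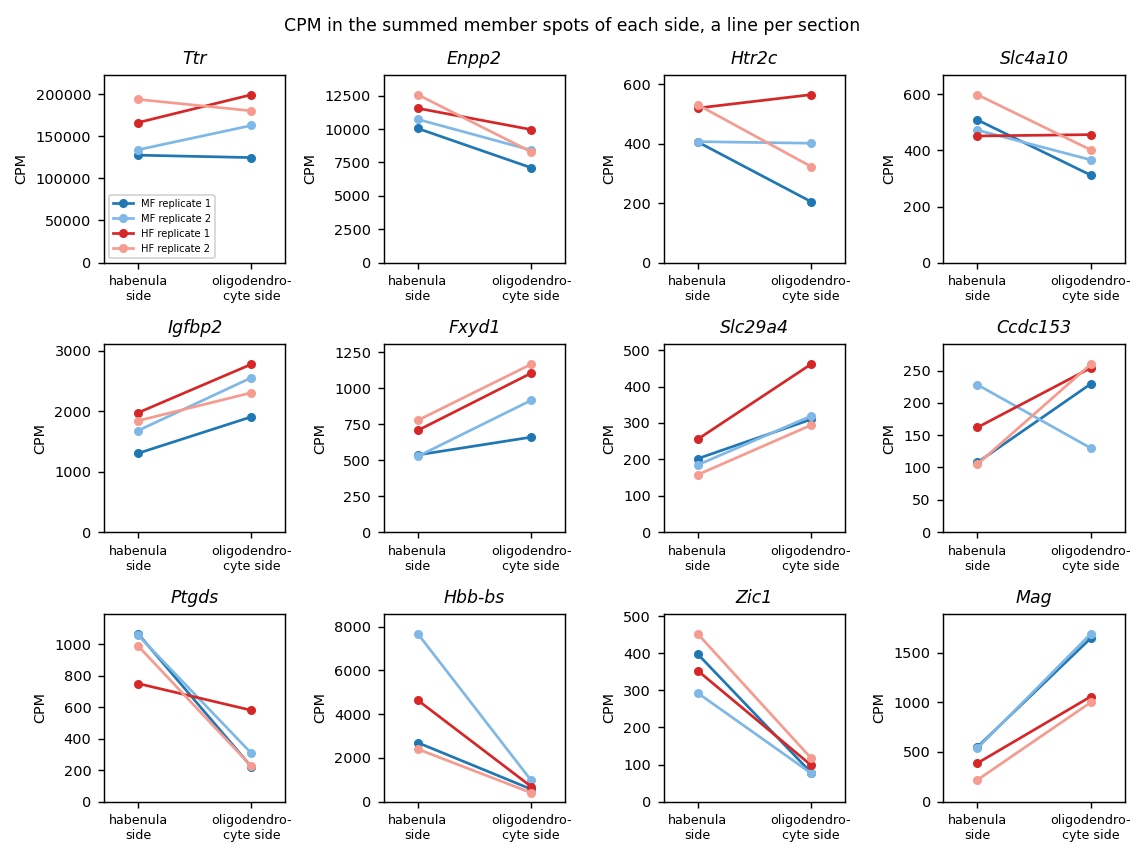
CPM of 12 genes in the summed members of the habenula side and the oligodendrocyte side, with a line per section and axes from 0. Igfbp2, Fxyd1, Slc29a4 and Mag are lower and Enpp2, Ptgds, Hbb-bs and Zic1 higher on the habenula side in all 4 sections, and the lines of Ttr cross.

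HF and MF were compared on the counts of all 18 members summed per section, with the same test and thresholds. The summed level of the score genes was higher in both HF sections than in either MF section. The 6 score genes summed to 2358 and 2513 CPM in the MF sections and to 3254 and 3330 CPM in the HF sections. This is a description, because these genes chose the spots. Folr1 was at 819 and 797 CPM in MF and 1107 and 1040 CPM in HF, Clic6 at 941 and 1008 against 1321 and 1335 CPM, and Otx2 at 60.6 and 80.8 against 98.3 and 94.7 CPM. More choroid plexus cells within the spots and more RNA per cell cannot be told apart. The habenula side had 14 spots in MF and 18 in HF. It held 42.1% and 52.1% of the UMIs of both pieces in MF against 51.4% and 62.7% in HF, so the diets overlapped in this share. The part of the score gene level and of the sides in the diet results was not tested.

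Of 8843 genes tested, 51 were called (0.577%), 18 higher in HF (0.204%) and 33 lower (0.373%). Both HF sections stood above both MF sections for 19.2% of the genes and below them for 20.2%. An exact test over 2 sections against 2 cannot give a two-sided p below 0.333, so a single gene leans on variances that edgeR shares among genes. The number of calls depended on 2 sections: it was 0 without HF replicate 2 and 7 without MF replicate 1. It was also 8 and 10 with 12 and 24 spots per section, 1 among members with Ttr at 10% or more, and 2 in DESeq2. With library size alone 98 genes were called, 13.3% of them higher, against 35.3% here. Of the 51 genes, 6 passed the filter on low counts (20.9 CPM in at least 2 sections) only through the diet in which they were higher, and their calls are not read as support. These were BC017158 and Gmnc among the higher and Pmch, Stac2, Camkk1 and Gabrd among the lower. The p-values of the named genes are to be read with these limits.

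In the 5 lists of choroid epithelium genes, 4 of 59 genes tested were called higher in HF, 0 were called lower, and 54 had a positive log2 fold change. The median was 0.33, against 0.00 over all genes tested. Among members with Ttr at 10% or more it was 0.20, with 46 of 58 genes above 0, and the lists ran from 0.03 for nutrient and drug transport (8 of 14 above 0) to 0.29 for ion and water transport (16 of 16). Sostdc1 (chr12:36314139-36318452, plus strand, GRCm38) had 477 and 526 CPM in MF and 726 and 868 CPM in HF (log2 fold change 0.75 ± 0.15 SE, adjusted p = 0.00669 in edgeR). Trpv4 (chr5:114622152-114658421, minus strand), a calcium channel that responds to osmotic change, had 89.7 and 97.5 against 159 and 184 CPM (0.97 ± 0.21, adjusted p = 0.0124 in edgeR). Tmem72 (chr6:116679063-116716913, minus strand), a membrane protein gene of the plexus, had 232 and 340 against 441 and 427 CPM (0.72 ± 0.17, adjusted p = 0.0190 in edgeR). Htr2c (chrX:146962513-147197277, plus strand) had 290 and 398 against 542 and 445 CPM and lay at the threshold (0.62 ± 0.16, adjusted p = 0.0499 in edgeR). In each of these genes, named because they were called, both HF sections stood above both MF sections, as in 19.2% of all genes tested. Sostdc1 kept its call under 9 of 17 alternative settings, Trpv4 under 7 of 16, Tmem72 under 5 of 17 and Htr2c under 3 of 17. These settings include a scaling to the score genes, which is a description.

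The direction of these lists depended on the scaling. With the summed UMIs of the score genes, which chose the spots, as library size, the median of all genes moved to -0.52 and that of the 59 epithelium genes to -0.18. This scaling shifts all genes by nearly the same amount and is a description. Ttr, at 125794 and 145412 CPM in MF and 182196 and 184587 CPM in HF, missed the threshold (0.50 ± 0.14, adjusted p = 0.0676 in edgeR), and its value relative to the score genes was 0.00. Enpp2 had 0.34 (adjusted p = 0.350 in edgeR), Aqp1 0.44 (0.232) and Trpm3, a cation channel gene, 0.56 (0.0612). Prlr, the prolactin receptor gene, was at 192 and 217 CPM in MF and 204 and 173 CPM in HF (-0.04).

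Among the folate and one-carbon genes, 11 of 31 passed the filter on low counts, 0 were called and 8 were above 0, with a median of 0.28. Among members with Ttr at 10% or more, 10 could be tested and 6 were above 0, with a median of 0.01. Of the 11 genes, 2 passed the filter only through the diet with the higher level. Cbs, which takes homocysteine to cystathionine, had 23.3 and 19.5 CPM in MF and 47.9 and 39.3 CPM in HF (1.02 ± 0.37, adjusted p = 0.232 in edgeR). Mat2b, a subunit of methionine adenosyltransferase, had 201 and 195 against 144 and 129 CPM (-0.49, adjusted p = 0.277 in edgeR). In both genes the groups did not overlap, yet neither passed the test. Slc19a1 had a log2 fold change of 0.57 (adjusted p = 0.364 in edgeR).

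The genes called higher in HF were mostly more abundant in the members than elsewhere. Of the 18, 16 had more CPM in the members than in the other spots and 11 were over 4-fold higher there, against 37.0% and 4.94% of all genes tested. The 18 include BC017158 and Gmnc, which passed the filter on low counts only through HF, so these counts are a description. The 12 with the largest change were Egr1, BC017158, Gmnc, Kcnip1, Lrrc55, Frem1, Maob, Trpv4, Wfikkn2, Nwd2, Wdr86 and Anxa2, and Sostdc1, Emb, Tmem72, Papola and Htr2c were called as well. Wfikkn2, a secreted inhibitor of growth differentiation factors, had 88.5 and 91.9 CPM in MF and 136 and 191 CPM in HF (0.96 ± 0.21, adjusted p = 0.0143 in edgeR). Gmnc, a regulator of multiciliated cells, had 15 and 7 UMIs in MF and 17 and 30 UMIs in HF. Kcnip1 and Lrrc55 were at 2.04 and 3.09 in the log2 difference of the habenula side over the other side. Nwd2 was at 4.04, but it is among the habenula markers that named the sides, so its value is a description.

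Egr1, an immediate early gene, had 27.9 and 33.4 CPM in MF and 80.7 and 113 CPM in HF (log2 fold change 1.79 ± 0.29, adjusted p = 0.000144 in edgeR). It was lower in the members than elsewhere (log2 ratio -1.03). In the other spots its difference between the diets was 2.22 and was not called (adjusted p = 0.757 in edgeR), and the test of the difference between spot sets was not passed (adjusted p = 0.791). Of 17 immediate early genes 7 were tested in the members, and Egr1 was the 1 called. Arc had 26.8 and 33.4 CPM in MF against 58.0 and 25.0 CPM in HF, so its groups overlapped.

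The genes called lower in HF were genes with less signal in the members than elsewhere. This held for all 33 by mean log2 ratio, against 5572 of the 8843 genes tested. The 33 include the 4 that passed the filter on low counts only through MF, so these counts are a description. Of the 29 that were tested between the sides, 16 were called lower on the habenula side, against 6.27% of all genes tested there. The 16 hold 2 of the oligodendrocyte markers that named the other side. Genes that passed the filter between the sides through only 1 side were not set apart. Several of the 33 were myelin genes. Mag (chr7:30899176-30914873, minus strand), a myelin adhesion protein gene, had 1184 and 1097 CPM in MF and 713 and 511 CPM in HF (-0.85 ± 0.15, adjusted p = 0.00132 in edgeR). Opalin, Ugt8a, Mal, Tspan2 and Cldn11, also myelin genes, were called lower as well. Of the oligodendrocyte list, 2 of 6 genes were called and 6 of 6 were below 0, with a median of -0.53. Of the neuron list, 1 of 7 genes was called and 6 were below 0, with a median of -0.50. Gad2 (chr2:22622205-22693874, plus strand), which makes the transmitter GABA, had 148 and 111 against 65.6 and 55.4 CPM (-1.10 ± 0.24, adjusted p = 0.0141 in edgeR). The 12 largest fitted decreases held Pmch, Stac2, Camkk1, Gabrd, Vstm2a, Kcna1, Btaf1, Pgm2l1, Htra1, Gad2 and Itpka (-1.03). Of these, Pmch, Stac2, Camkk1 and Gabrd passed the filter on low counts only through MF, and their calls are not read as support. Kcna1 encodes a potassium channel and Itpka a calcium signalling kinase of neurons. Pmch, the precursor of melanin-concentrating hormone, had 99 and 17 UMIs in MF against 8 and 0 UMIs in HF, and it was not called without HF replicate 2 (adjusted p = 0.363 in edgeR) or without MF replicate 1 (adjusted p = 0.493 in edgeR).

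Beside these calls stand the levels of the other tissues in the members. The oligodendrocyte markers summed to 23352 and 20471 CPM in MF and 16118 and 12434 CPM in HF, and the neuron markers to 3246 and 3003 against 2221 and 2126 CPM. All oligodendrocyte and neuron markers were above 0 UMIs in the members of every section. Ependymal markers were above 0 for 11 of 11 genes tested, with a median of 0.39 and 0 called. The 4 medial habenula genes tested were above 0, with a median of 0.67, and Nwd2 was called. Stroma, endothelium, macrophage and blood markers had medians of -0.08, -0.02, -0.16 and -0.17, astrocyte markers -0.31 and clock genes 0.18. Of these 5 lists and the clock genes only Cldn11 was called.

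**Figure D5:**
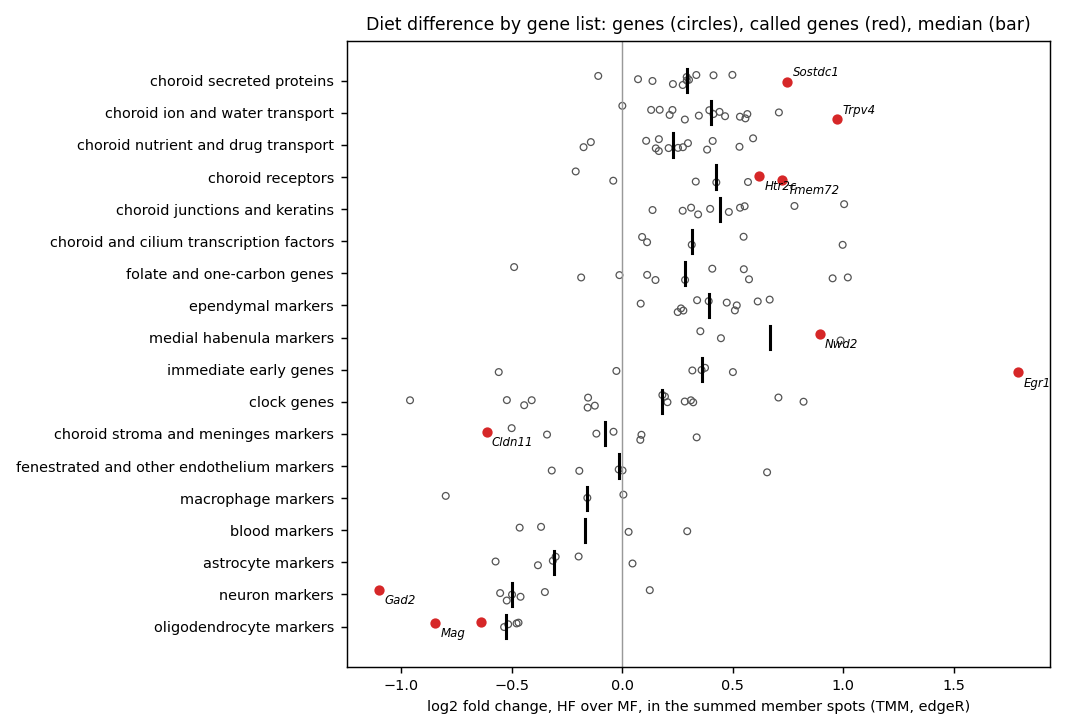
Log2 fold change of HF over MF in the summed members (horizontal axis) for the tested genes of 18 lists, with called genes in red and the median of a list as a bar. The lists of choroid epithelium lie to the right of 0 and the neuron and oligodendrocyte lists to the left, and Egr1 stands farthest to the right at 1.79.

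Within a side fewer genes were called. On the habenula side 0 of 6646 genes passed the test, with 500 at an unadjusted p under 0.05. On the oligodendrocyte side 25 of 4915 passed, 12 higher and 13 lower, of which 11 were among the 51. These 11 included Egr1 (2.13), Wfikkn2 (1.19), Wdr86 (1.11), Anxa2 (1.08) and Gad2 (-1.29). The 3 ependymal genes Tmem212 (1.25), Rsph1 (1.03) and Rarres2 (1.17) were called higher there as well. The epithelium lists had medians of 0.31 on the habenula side, with 44 of 52 genes above 0, and 0.36 on the oligodendrocyte side, with 44 of 50 above 0. Sostdc1 differed by 0.80 and 0.65 and Trpv4 by 1.36 and 0.74 on the habenula and oligodendrocyte sides, with adjusted p-values of 0.100 to 0.209 in edgeR. The sums of a side are smaller than those of all members.

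In the other kept spots of the same sections, 0 of 14920 genes (0.0%) were called in edgeR, with 967 at an unadjusted p under 0.05 and 18 called by DESeq2. Without HF replicate 1 the number was 1009 and without HF replicate 2 it was 614. Whether the diet difference itself differed between members and other spots was tested as a term with the section as a block, and 19 of 14598 genes passed (0.13%), 5 with the diet difference higher (0.0343%) and 14 with it lower (0.0959%) in the members. It was 3 without MF replicate 1, 9 without HF replicate 2 and 42 without HF replicate 1. Emb, an immunoglobulin-family partner of lactate transporters, had 286 and 259 CPM in MF members and 386 and 484 CPM in HF members. Its diet difference was 0.74 in the members and 0.03 elsewhere (term 0.69, adjusted p = 0.0168 in edgeR). For Htr2c the differences were 0.62 and 0.00 (term 0.63, adjusted p = 0.0431 in edgeR). None of the 12 measured secreted protein genes passed this test, and with the spots 1 step away in place of all others no gene passed it, with 575 of 9923 at an unadjusted p under 0.05 in edgeR.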

How the data were processed

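Visium-FFPE coronal brain sections of 4 mice, 2 per maternal diet, were analysed, and a section is the unit of replication. Probe reads were aligned by the authors to mm10 with Space Ranger 2.0.0, and the deposited values are raw UMI counts of 19465 features per spot under tissue. Per the file headers, a deposited table from Space Ranger also gives Moran's I, a score of how strongly the level of a gene clusters in space. Image scale factors were not used here.

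Kept spots had at least 500 UMIs and 250 genes, and 18 members per section were taken by the score of 6 genes. Their UMIs were summed per section. HF and MF were compared on these sums with edgeR 4.0.16 in R 4.3.3 (quasi-likelihood, TMM, filterByExpr), with p-values adjusted over all genes tested. The difference between members and other spots in the effect of diet was fitted with section as a block, as was the comparison of the sides. Ratios used a pseudocount of 1 CPM. Summaries used Python 3.11.15 and scipy 1.17.1. The fits were tested on simulated data. Coordinates are from GENCODE vM21 (19451 features matched) and promoter windows from RefSeq.

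The members and gene lists were chosen with earlier results of these data known. The named genes are the members of 19 lists, 15 leading genes and up to 12 called genes in each direction. Emb, Papola, Opalin, Ugt8a, Mal, Tspan2, Zic1, Calb2 and, on the sides, the genes named were chosen after their values were seen. Of 212 list entries 206 were matched to a feature, and the others were not analysed here. A few genes that the rule names are not reported here. Section depth was 34983708 to 90098381 UMIs, and intervals cover counting error only. Alternatives were 12 or 24 spots, thinning to 3000 UMIs, library size alone, Ttr left out, no filter, DESeq2 1.42.0, a replicate block, scaling to the score genes and each section left out. Stricter members, each side alone, neighbouring spots as the reference and the comparison of the sides with its alternatives were added after seeing the data.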

Additional observations from a re-analysis of the deposited data

Results flagged for a closer look

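For 19 genes the diet difference in the members differed from that in the other spots of the same sections by the test of that difference. In log2 units (HF over MF in the members minus the same in the other spots), 5 differences were above 0: Pcolce2 had 1.13, the habenula neuropeptide gene Tac2 0.89, Cd82 0.77, Emb 0.69 and Htr2c 0.63. The other 14 were below 0. Stac2 had -2.74, Camkk1 -1.78, Vstm2a -1.42, Meis2 -1.41, Gad2 -1.34, Pgm2l1 -1.22 and Caln1 -1.21. Inka2 had -1.17, Kifc2 -1.01, Itpka -1.0, Mef2c -0.83, Rgs4 -0.77, Nrgn -0.75 and Mag -0.70. In the diet test of the members, Stac2 and Camkk1 passed the filter on low counts only through MF, and they are not read as support. Several others of these 14 are neuron genes and Mag is a myelin gene. Neuron and oligodendrocyte markers were also lower in the HF members, as given in the report. Their part in these differences was not tested.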

How the results depend on the processing

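For HF against MF in the members, 51 genes were called. The count moved to 8 with 12 spots per section, 10 with 24, 98 with library size alone and 2 of 14973 genes tested in DESeq2. After thinning to 3000 UMIs it was 1, but only 988 genes could be tested. Scaling to the score genes gave 2376, of which 2372 were lower. These genes chose the spots and were higher in HF, so this scaling shifts nearly all genes down and its count is a description. Alternatives chosen after seeing the data gave 25 with at least 10 score gene UMIs per member, 1 with Ttr at 10% or more, 0 on the habenula side (500 at an unadjusted p under 0.05) and 25 on the oligodendrocyte side. Leaving out a section gave 0 (HF replicate 2; 719 at an unadjusted p under 0.05) to 49. For the test of the diet difference between members and other spots, 19 genes were called, and the count was 5 with 12 spots, 0 after thinning (389 at an unadjusted p under 0.05) and, added after seeing the data, 8, 0 (683) and 0 (575) with the stricter members and with spots 1 step away. Leaving out a section gave 3 to 42. In the other spots 0 genes were called in edgeR, 1 without the filter, 18 in DESeq2 and 0 to 1009 without a section. Between the sides, where a gene could pass the filter through only 1 side, 559 genes were called and 332 to 563 without a section. Where a section was left out, the genes called between the diets in the members also changed, and not only their number. The cause of these moves was not tested. The depth of the members, least in MF replicate 2, limits what low genes can show. None of the 34 named genes called between the diets changed direction in any alternative that could test it. Over all named genes and alternatives 316 of 1293 comparisons lost a call and 23 gained one, and 92 of 333 list medians moved by more than the spread between sections. Of these gene comparisons, 14 lost and 7 gained a call under the scaling to the score genes, which is a description. Between the sides 33 of 449 such comparisons lost a call.

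The replicate numbers did not pair the sections (r = -0.01 between the deviations of sections with the same number), and the fit with the number as a block called 28 genes in the members, 27 of them among the 51, and 0 in the other spots (534 at an unadjusted p under 0.05).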

Other observations

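Moran's I, which is near 0 for a gene without spatial pattern and was computed by Space Ranger on all spots, ranked Ttr among the most clustered genes of a section. It was 0.747 in MF replicate 1 (rank 9), 0.638 in MF replicate 2 (rank 11), 0.659 in HF replicate 1 (rank 10) and 0.619 in HF replicate 2 (rank 18). Folr1 had 0.312, 0.223, 0.347 and 0.279 in the same order. The lowest value among the score genes was that of Kl in MF replicate 2, at 0.0394.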
